A study of Mus musculus with 9 samples.

Results

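The 10 genes described here handle iron in the cell or set how easily its membrane lipids are peroxidized: Gpx4, Acsl4, Tfrc, Fth1, Ftl1, Aifm2, Ncoa4, Steap3, Slc40a1 and Slc39a14. They were taken by gene symbol from the 20189 genes of the deposited count table, all 10 were found, and all 10 were among the 20143 genes tested. Their transcripts were measured by poly(A) RNA sequencing in wild type E14 cells, mouse ES cells that are pluripotent and grow as an established line. The groups were 3 libraries of Thr-starved cells, 3 of Cys-starved cells and 3 of unstarved cells, each after 3 h in the test medium. The medium recipe in the labels held β-mercaptoethanol, leukemia inhibitory factor and dialyzed serum, with every amino acid (AA) for unstarved cells. It names Arg and Leu, not Thr and Cys, as the AAs left out, so whether all groups here shared this medium is not stated. The comparisons asked whether withdrawal of Thr or of Cys, the AA that limits synthesis of glutathione, moved the transcripts of this system at this early time point. Nothing in the labels says that the libraries of a group came from separate cultures, so p-values measure only the spread between these samples, which may be technical.

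The libraries held 48763102 to 74962733 counts each. Levels are given as CPM, the counts of a gene relative to the TMM-adjusted total of its library, as mean ± SD of 3 libraries, and a gene was called where the adjusted p of edgeR's quasi-likelihood test was at most 0.05. The 6 ES cell markers (Pou5f1, Nanog, Sox2, Zfp42, Esrrb and Klf4) were all detected and summed to 2910 to 2960 CPM in unstarved, 3250 to 3290 CPM in Thr-starved and 2970 to 2990 CPM in Cys-starved libraries. The 10 markers of differentiated or feeder cells summed to 38.7 to 40.8 CPM, 44.5 to 48 CPM and 42.7 to 47.5 CPM, none was at 0, and Sox1 was the highest of them at a mean of 8.37 to 15.4 CPM; their part in the results below was not tested. The sums hide opposite moves of single markers. With Thr starvation 4 ES cell markers were called higher and 2 lower (all genes, 31.1% and 31.9%). With Cys starvation they were 3 higher and 3 lower (all genes, 17.5% and 18.8%). The other 10 markers were 3 higher and 3 lower with Thr, and 3 higher and 0 lower with Cys starvation. In bulk RNA, fewer cells that express a gene and less of its RNA per cell cannot be told apart.

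Iron enters most cells bound to transferrin, through the transferrin receptor TFRC, and is reduced in the endosome by STEAP3; SLC39A14 imports iron that is not bound to transferrin. Surplus iron is stored in a shell of ferritin heavy and light chains, FTH1 and FTL1, which NCOA4 carries to the lysosome for release, and SLC40A1 (ferroportin) is the exporter. Free iron drives the peroxidation of polyunsaturated phospholipids, which ACSL4 helps to make, and ferroptosis is the death that follows when this outruns repair. GPX4 uses glutathione to reduce lipid peroxides, and AIFM2, also called FSP1, regenerates ubiquinol as a radical trap without glutathione. Transcripts of several of these genes carry iron-responsive elements (IREs), stem loops bound by iron regulatory proteins when iron is scarce, which blocks translation from a 5′ UTR and stabilizes the RNA from a 3′ UTR.

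The IREs are shown because such elements are known to act after transcription, a layer that transcript counts see only in part, and because their place in the transcript differs between the members. Among the annotated coding transcripts (GENCODE M21, GRCm38), the transcript strand was searched for the loop CAGTGN closed by a stem of 5 base pairs, G-T pairs allowed, with an unpaired C just before the stem. Such an element lay in 4 of the 10 genes, against 293 of 21901 protein-coding genes (1.34%). It lay in a 5′ UTR in 0.142% and in a 3′ UTR in 0.589% of those genes. The loop CAGTGN is in capitals, 6 flanking bases are kept on each side of the core, and coordinates are those of the 29 bases shown.
Fth1, 5′ UTR, chr19:9982732-9982760, plus strand: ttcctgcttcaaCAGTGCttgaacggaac
Ftl1, 5′ UTR, chr7:45459779-45459807, minus strand: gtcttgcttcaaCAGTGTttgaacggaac
Slc40a1, 5′ UTR, chr1:45925465-45925493, minus strand: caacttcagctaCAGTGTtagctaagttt
Tfrc, 3′ UTR, chr16:32631219-32631247, plus strand: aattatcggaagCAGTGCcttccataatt
Tfrc, 3′ UTR, chr16:32631598-32631626, plus strand: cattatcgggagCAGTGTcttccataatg
Tfrc, 3′ UTR, chr16:32631663-32631691, plus strand: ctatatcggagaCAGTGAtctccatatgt
Tfrc, 3′ UTR, chr16:32631710-32631738, plus strand: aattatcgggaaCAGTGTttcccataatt
A match describes the letters of a transcript and is not a shown site. Gpx4, Acsl4, Aifm2, Ncoa4, Steap3 and Slc39a14 had no match to this pattern in the transcripts searched.

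**Figure D1:**
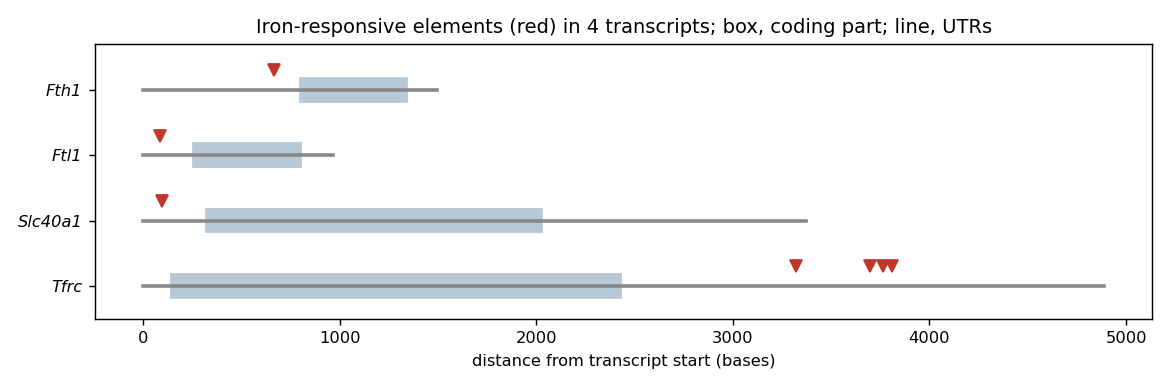
Position of the iron-responsive elements (red triangles) along 1 annotated transcript each of Fth1, Ftl1, Slc40a1 and Tfrc, in bases from the transcript start, with the coding part as a box and the UTRs as a line. The element precedes the coding part in Fth1, Ftl1 and Slc40a1, and the 4 elements of Tfrc follow it.

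With Thr starvation, Acsl4, Steap3 and Gpx4 rose and Slc40a1, Tfrc, Ncoa4 and Fth1 fell, so 7 of the 10 genes (70%) were called, 3 higher and 4 lower, in a comparison that called 63% of all genes tested, 31.1% higher and 31.9% lower. With Cys starvation 8 of 10 (80%) were called against 36.3% of all genes (17.5% higher and 18.8% lower), 7 of them lower (Tfrc, Steap3, Slc39a14, Fth1, Ftl1, Ncoa4 and Gpx4) and Aifm2 higher. The shares over all genes include genes with few counts, which are harder to call. When at least 10 counts in every library were required, 7325 genes were called with Cys starvation, against 7313 of all 20143. How many genes met that requirement is not given here, so 7325 cannot be read as a share. The share among genes at the levels of the members was not computed. The called genes moved little: none reached a 1.5-fold change with Cys starvation, and only Slc40a1 and Steap3 did so with Thr starvation. The median log2 fold change of the 10 genes was 0.03 with Thr and -0.17 with Cys starvation, against -0.016 and 0.0068 over all 20143 genes tested (0.011 and -0.016 when only genes averaging 5 CPM or more were taken), and the median size of change was 0.22 and 0.21 against 0.39 and 0.17. The libraries of the 2 groups did not overlap for 7 members with Thr and 8 with Cys starvation, where 66.5% and 46.4% of all genes did not overlap. Both comparisons use the same 3 unstarved libraries. When the deposited size factors replaced TMM, the Cys calls were 7 lower and 0 higher among the members, and 2787 higher and 4786 lower over all genes in place of 3523 and 3790.

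**Figure D2:**
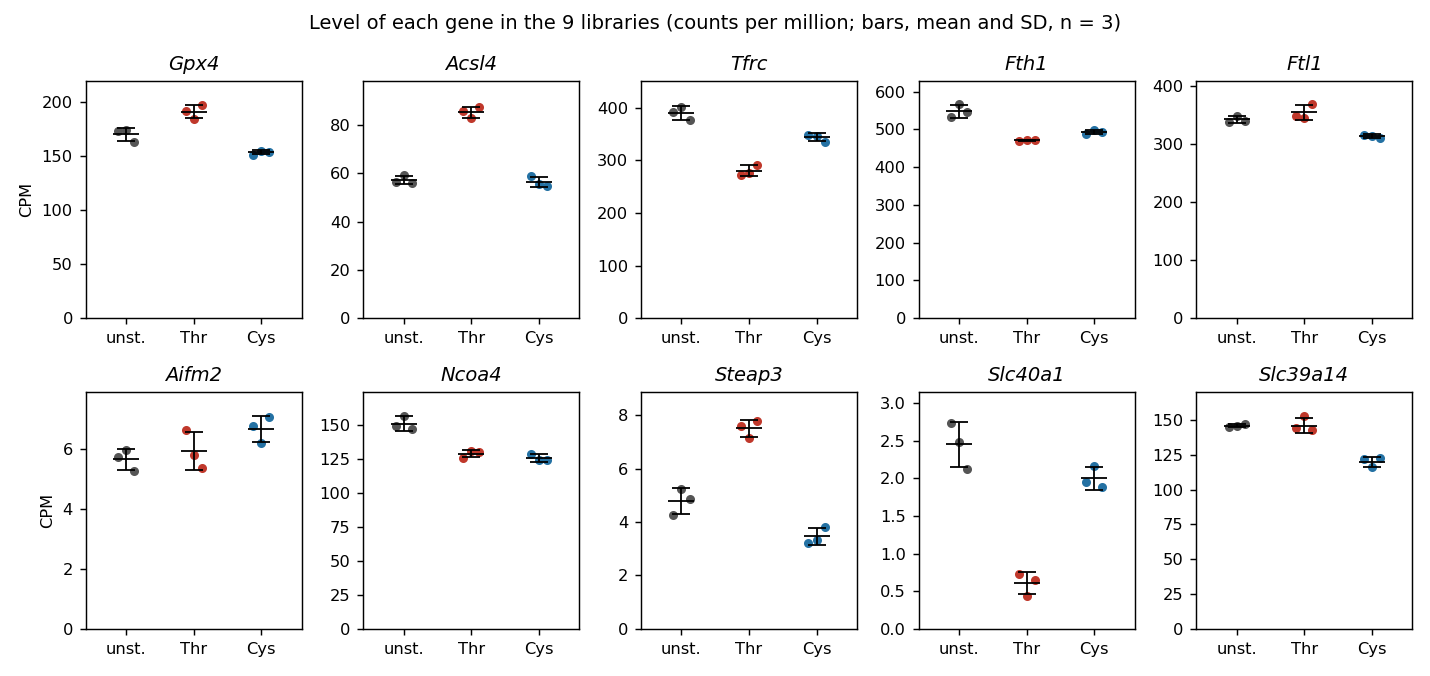
Level of each of the 10 genes in every library, in CPM on axes that start at 0, for unstarved (grey), Thr-starved (red) and Cys-starved (blue) cells; points are libraries and bars are mean and SD of 3. Slc40a1 and Tfrc are lowest and Acsl4 and Steap3 highest in the Thr-starved libraries.

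Tfrc (ENSMUSG00000022797, chr16:32608920-32632794, plus strand), the receptor that brings transferrin-bound iron into the cell, was lower under both starvations. Its level was 392, 401 and 376 CPM in unstarved libraries 1 to 3 (390 ± 13), 349, 347 and 335 CPM in Cys-starved (344 ± 7.81) and 273, 275 and 292 CPM in Thr-starved libraries (280 ± 10.5). The 3 groups did not overlap. With Thr starvation Tfrc fell by 28.1% (log2 -0.48, SE 0.028, edgeR adjusted p = 9.3e-13) and with Cys starvation it fell by 11.8% (log2 -0.18, SE 0.028, edgeR adjusted p = 1.9e-05). The Thr-starved level was also below the Cys-starved one, by a log2 difference of -0.29 (SE 0.028, edgeR adjusted p = 4.3e-09), or -0.45 once the dependence of each library on the GC content and the length of transcripts (its GC and length trends) had been removed.

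Steap3 (ENSMUSG00000026389, chr1:120190757-120272705, minus strand), the reductase of the transferrin cycle, moved in opposite directions. Unstarved libraries held 4.27, 5.23 and 4.86 CPM (4.78 ± 0.485). It was higher in each Thr-starved library, at 7.59, 7.13 and 7.77 CPM (7.5 ± 0.331), and lower in each Cys-starved library, at 3.21, 3.34 and 3.82 CPM (3.46 ± 0.325). The change was 1.57-fold with Thr starvation (log2 0.65, SE 0.094, edgeR adjusted p = 2.2e-06) and 0.722-fold with Cys starvation (log2 -0.47, SE 0.1, edgeR adjusted p = 0.00075). Between the starvations Steap3 differed 2.18-fold (log2 1.12, 95% interval 0.92 to 1.32, edgeR adjusted p = 8e-10), the largest excess of Thr-starved over Cys-starved cells among the members.

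Slc39a14 (ENSMUSG00000022094, chr14:70303469-70351425, minus strand), an importer of iron, zinc and manganese, was lower with Cys starvation. It was at 145, 146 and 147 CPM in unstarved libraries (146 ± 1.15), at 144, 153 and 143 CPM in Thr-starved (146 ± 5.39) and at 122, 116 and 123 CPM in Cys-starved libraries (120 ± 3.5). All Cys-starved libraries lay below all others, and the unstarved libraries lay within the range of the Thr-starved ones. It fell by 17.7% with Cys starvation (log2 -0.28, SE 0.029, edgeR adjusted p = 7.9e-08). The interval of the Thr change ran from -0.06 to 0.06 (edgeR adjusted p = 0.96), and without the GC and length trends the change was 0.089 (edgeR adjusted p = 0.0051).

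Fth1 (ENSMUSG00000024661, chr19:9980598-9985098, plus strand), the ferritin chain that oxidizes iron for storage, was lower under both starvations. The unstarved libraries held 533, 566 and 545 CPM (548 ± 16.8), the Cys-starved 487, 499 and 494 CPM (493 ± 6.03) and the Thr-starved 469, 471 and 472 CPM (471 ± 1.56). No library of one group overlapped another group. Fth1 fell by 14.2% with Thr starvation (log2 -0.22, SE 0.022, edgeR adjusted p = 6.4e-09) and by 10.1% with Cys starvation (log2 -0.15, SE 0.022, edgeR adjusted p = 6.6e-06). The difference between the starvations was small (log2 -0.07, SE 0.022, edgeR adjusted p = 0.01) and was not called with the deposited size factors (-0.023, edgeR adjusted p = 0.38) or without Thr-starved library 1 (-0.058, edgeR adjusted p = 0.062), while without the GC and length trends it was -0.11 (edgeR adjusted p = 3.6e-05).

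Ftl1 (ENSMUSG00000050708, chr7:45457944-45459884, minus strand), the light chain of the same shell, was lower with Cys starvation. Its level was 338, 348 and 339 CPM unstarved (342 ± 5.35), 316, 313 and 310 CPM Cys-starved (313 ± 3.34) and 348, 345 and 368 CPM Thr-starved (354 ± 12.2). The Cys-starved libraries lay below the rest, while Thr-starved and unstarved libraries overlapped. Ftl1 fell by 8.35% with Cys starvation (log2 -0.13, SE 0.024, edgeR adjusted p = 0.00025), and was 1.13-fold higher in Thr-starved than in Cys-starved cells (log2 0.18, SE 0.024, edgeR adjusted p = 1.3e-06). The Thr change of 0.05 was not called (interval 0 to 0.1, edgeR adjusted p = 0.078) but passed without unstarved library 2 (0.07, edgeR adjusted p = 0.027) or Thr-starved library 2 (0.068, edgeR adjusted p = 0.032), with RLE normalization (0.057, edgeR adjusted p = 0.049) and with DESeq2 (0.057, DESeq2 adjusted p = 0.041). Without the GC and length trends the Thr change of Ftl1 was 0.29 (edgeR adjusted p = 2.1e-11), the Cys change -0.06 (edgeR adjusted p = 0.041, and 0.064 when the replicate block was added, so that the Cys call was lost) and their difference 0.35. The difference between the heavy and light chain was not tested.

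Ncoa4 (ENSMUSG00000056234, chr14:32159865-32179855, plus strand), the receptor that delivers ferritin to the lysosome, was lower under both starvations by similar amounts. It was at 149, 157 and 147 CPM unstarved (151 ± 5.4), 126, 131 and 130 CPM Thr-starved (129 ± 2.71) and 129, 124 and 124 CPM Cys-starved (126 ± 2.83). Every starved library lay below every unstarved one, and the starved groups overlapped each other. Ncoa4 fell by 14.6% with Thr starvation (log2 -0.23, SE 0.029, edgeR adjusted p = 3.6e-07) and by 16.8% with Cys starvation (log2 -0.27, SE 0.029, edgeR adjusted p = 1.7e-07). The interval of the difference between them, -0.02 to 0.1 (edgeR adjusted p = 0.28), holds differences in either direction. With the deposited size factors that difference was 0.082 (edgeR adjusted p = 0.019), and without the GC and length trends it was -0.021.

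Slc40a1 (ENSMUSG00000025993, chr1:45908068-45926523, minus strand), the iron exporter, showed the widest change of the members with Thr starvation. It was a low transcript throughout, resting on 21 to 165 counts per library. The unstarved libraries held 2.73, 2.48 and 2.13 CPM (2.45 ± 0.299), the Cys-starved 1.95, 2.16 and 1.88 CPM (2 ± 0.148) and the Thr-starved 0.735, 0.44 and 0.654 CPM (0.61 ± 0.152). Each Thr-starved library was thus far below every other, while Cys-starved and unstarved libraries overlapped. With Thr starvation its level was 0.252-fold the unstarved level (log2 -1.99, SE 0.18, edgeR adjusted p = 2.3e-09) and 0.308-fold the Cys-starved level (log2 -1.7, SE 0.19, edgeR adjusted p = 4.5e-08). The Cys change of -0.29 had an interval from -0.61 to 0.02 (edgeR adjusted p = 0.15).

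Gpx4 (ENSMUSG00000075706, chr10:80047166-80056439, plus strand), the selenoenzyme that reduces phospholipid peroxides, moved in opposite directions like Steap3 but over a narrower range. The unstarved libraries held 173, 174 and 163 CPM (170 ± 5.98). Thr-starved libraries were higher, at 192, 184 and 197 CPM (191 ± 6.18), and Cys-starved libraries were lower, at 151, 155 and 154 CPM (154 ± 1.98). The groups did not overlap. Gpx4 was 1.13-fold higher with Thr starvation (log2 0.17, SE 0.029, edgeR adjusted p = 1.7e-05), and with Cys starvation it fell by 9.47% (log2 -0.14, SE 0.029, edgeR adjusted p = 0.00036). The difference between the starvations was 1.24-fold (log2 0.31, SE 0.029, edgeR adjusted p = 2e-09). Without the GC and length trends these 3 values for Gpx4 were 0.49, -0.071 (edgeR adjusted p = 0.045) and 0.56, and the Cys call was lost when the replicate block was added to that fit (-0.071, edgeR adjusted p = 0.071).

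Aifm2 (ENSMUSG00000020085, chr10:61715263-61739260, plus strand), the suppressor of ferroptosis that works beside GPX4, was a low transcript and the only member called higher with Cys starvation. Its level was 5.72, 5.97 and 5.27 CPM unstarved (5.65 ± 0.358), 6.75, 6.21 and 7.06 CPM Cys-starved (6.67 ± 0.428) and 6.63, 5.79 and 5.37 CPM Thr-starved (5.93 ± 0.643). The Cys-starved libraries lay above the unstarved ones and overlapped the Thr-starved ones. The 1.18-fold Cys change (log2 0.24, SE 0.09, edgeR adjusted p = 0.046) was lost with DESeq2 (0.23, DESeq2 adjusted p = 0.066), with the deposited size factors (0.19, edgeR adjusted p = 0.097), without the GC and length trends (0.22, edgeR adjusted p = 0.063) and without any 1 of Cys-starved library 1 or 3, unstarved library 1 or 3 or Thr-starved library 2 (0.19 to 0.24). The Thr change of Aifm2 was 0.06 (interval -0.13 to 0.25, edgeR adjusted p = 0.61). Its level with Thr against Cys starvation differed by -0.18 (interval -0.37 to 0.01, edgeR adjusted p = 0.095), and by -0.26 without Thr-starved library 1, where it was called (edgeR adjusted p = 0.026).

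Acsl4 (ENSMUSG00000031278, chrX:142317993-142390535, minus strand), the enzyme that activates polyunsaturated fatty acids for membrane lipids, was higher with Thr starvation. Thr-starved libraries held 85.8, 82.8 and 87.3 CPM (85.3 ± 2.31), unstarved libraries 56.4, 59.3 and 56.1 CPM (57.3 ± 1.79) and Cys-starved libraries 58.9, 55.6 and 54.7 CPM (56.4 ± 2.2). The Thr-starved libraries stood above all others, and the other groups overlapped. Acsl4 was 1.49-fold higher with Thr starvation (log2 0.57, SE 0.035, edgeR adjusted p = 1.3e-12) and 1.51-fold higher with Thr than with Cys starvation (log2 0.6, SE 0.035, edgeR adjusted p = 7.6e-13). The Cys change was -0.02 (interval -0.1 to 0.05, edgeR adjusted p = 0.66). Without the GC and length trends the Thr change of Acsl4 was 0.33 and the Cys change -0.11 (edgeR adjusted p = 0.013).

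**Figure D3:**
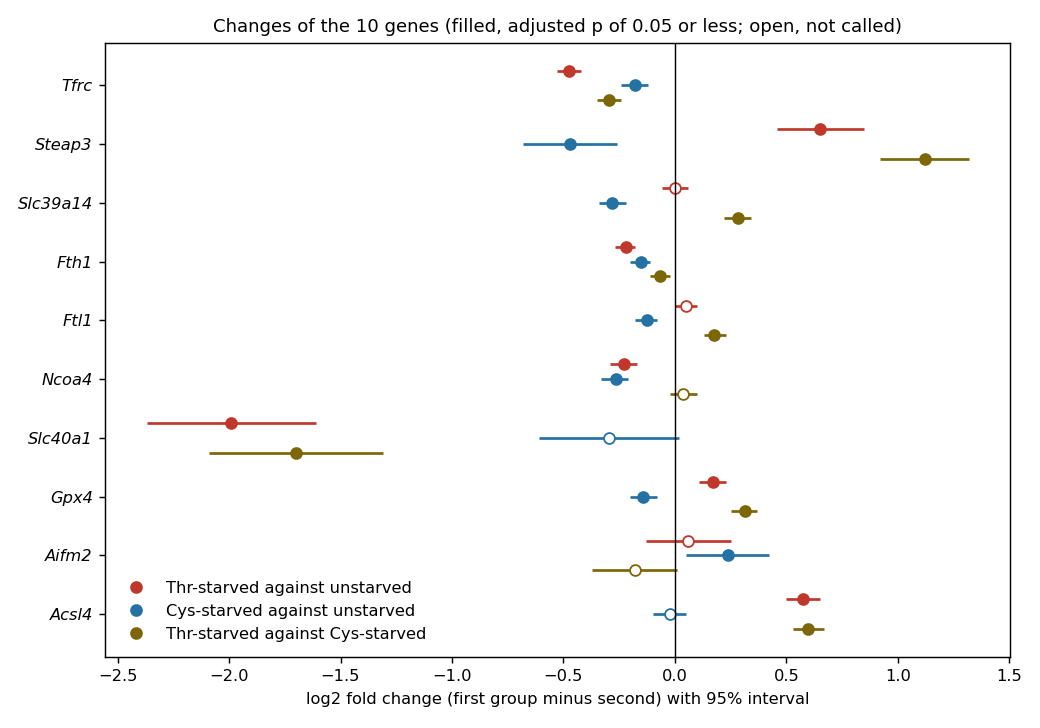
Log2 fold change of the 10 genes with 95% intervals for Thr-starved against unstarved (red), Cys-starved against unstarved (blue) and Thr-starved against Cys-starved cells (olive); filled points have an adjusted p of 0.05 or less. Gpx4 and Steap3 lie on opposite sides of 0 in the first 2 comparisons, and Tfrc, Fth1 and Ncoa4 lie below 0 in both.

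Thr-starved and Cys-starved cells were also compared directly, and 8 of the 10 genes differed, 5 of them higher with Thr starvation (Steap3, Acsl4, Gpx4, Slc39a14 and Ftl1) and 3 lower (Slc40a1, Tfrc and Fth1). This comparison called 62% of all genes tested, 30.4% higher and 31.6% lower. The median log2 difference of the members was 0.11, against -0.018 over all genes, and the median size was 0.29 against 0.36. Libraries of the 2 groups did not overlap for 8 members, and for 65.8% of all genes. The members past 1.5-fold here were Slc40a1, Steap3 and Acsl4. With the deposited size factors 6 members were higher and 2 lower. Over all genes 6756 were then higher and 5862 lower, in place of 6123 and 6365.

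Sorted by role, the members did not move as a block. Of the import genes, Tfrc fell under both starvations, Steap3 rose under Thr starvation and fell under Cys starvation, and Slc39a14 fell with Cys starvation. Of the storage genes, Fth1 and Ncoa4 fell under both starvations and Ftl1 with Cys starvation. The exporter Slc40a1 fell with Thr starvation. Of the genes that repair lipid peroxides, trap radicals or make the lipids at risk, Gpx4 rose under Thr starvation and fell under Cys starvation. Acsl4 rose with Thr starvation, and Aifm2 passed the test with Cys starvation at an edgeR adjusted p of 0.046. The Cys calls of Gpx4 and Ftl1 were lost in the fit with the replicate block and without the GC and length trends. In that fit Ftl1 was called higher with Thr starvation (0.29). Of the 4 genes with an IRE, the carrier of 3′ UTR elements, Tfrc, fell under both starvations. Among the carriers of a 5′ UTR element, Fth1 fell under both starvations, Ftl1 fell with Cys and Slc40a1 with Thr starvation.

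To compare levels between genes, CPM was divided by the length of each gene's annotated exons in kb. This length joins the exons of all transcripts of a gene and can far exceed that of 1 transcript. It was 9365 bases for Ncoa4, 10550 for Slc39a14 and 3469 for Fth1, where a coding transcript had 4065, 4926 and 1494 bases. For Acsl4 the lengths were close, 5405 and 5280 bases. The order below therefore depends on the length used, and an order by transcript length was not computed. In unstarved cells the ferritin chains led, Ftl1 at 255 ± 3.99 and Fth1 at 158 ± 4.85 CPM per kb, followed by Gpx4 at 98.4 ± 3.47 and Tfrc at 63 ± 2.1 CPM per kb. These 4 genes stood well above the others. Ncoa4 at 16.1 ± 0.576, Slc39a14 at 13.9 ± 0.109 and Acsl4 at 10.6 ± 0.33 CPM per kb formed a middle tier. Aifm2 at 1.37 ± 0.0868, Steap3 at 0.837 ± 0.0849 and Slc40a1 at 0.272 ± 0.0333 CPM per kb were the lowest. No neighbours in this order overlapped between libraries, and the order was the same in Cys-starved cells. In Thr-starved cells Acsl4 moved up to 15.8 ± 0.427 CPM per kb, above Slc39a14 (13.9 ± 0.511) and Ncoa4 (13.8 ± 0.29), whose libraries overlapped. The Thr-starved libraries also overlapped between Aifm2 (1.44 ± 0.156 CPM per kb) and Steap3 (1.31 ± 0.0579 CPM per kb).

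Several members share sequence with other annotated genes, and the counts of these are less certain. Of the distinct 43-base stretches of the Gpx4 transcripts, the length of a read, 36.2% also lie in another gene, led by the pseudogene Gpx4-ps2, which had a mean of 91.7 CPM over the 9 libraries and log2 changes of 0.19 with Thr and -0.14 with Cys starvation. For Ftl1 the share was 60.5% over 19 other genes, led by Ftl1-ps1 at 314 CPM, whose changes were 0.06 (edgeR adjusted p = 0.013) and -0.11. For Ncoa4 it was 18.2%, all with Gm6768 at 77.8 CPM, whose changes were -0.23 and -0.28. These copies thus carried nearly the same changes as the genes they resemble, and how the counting divided shared reads between them is not given in the sources used here. Aifm2 shares 233 exon bases with H2afy2 on the opposite strand, a histone variant gene at 27.1 CPM with changes of 0.53 (edgeR adjusted p = 6.9e-10) with Thr and 0.09 (edgeR adjusted p = 0.16) with Cys starvation, and without the strand setting reads of the pair cannot be told apart. Ftl1 also overlaps Gm10252 on the opposite strand and the small RNA gene Gm22133 on its own strand. Fth1 shared 1.88% of its stretches, Slc39a14 0.337% and Slc40a1 0.0109%, and Acsl4, Tfrc and Steap3 shared none.

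Around these genes, a wider list of 72 genes of iron handling and ferroptosis was examined, of which 66 could be tested. With Thr starvation 18 were higher and 29 lower (71.2% called, against 63% of all genes), with Cys starvation 11 higher and 24 lower (53% against 36.3%), and between the starvations 20 were higher and 29 lower with Thr (74.2% against 62%). The shares over all genes, here and below, include genes with few counts, and shares at matched levels were not computed. The median log2 change of the wider list was -0.07, -0.06 and -0.06, against -0.016, 0.0068 and -0.018 over all genes. The genes not tested were Cp, Hephl1, Ftmt, Hamp, Hjv and Tmprss6.

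**Figure D4:**
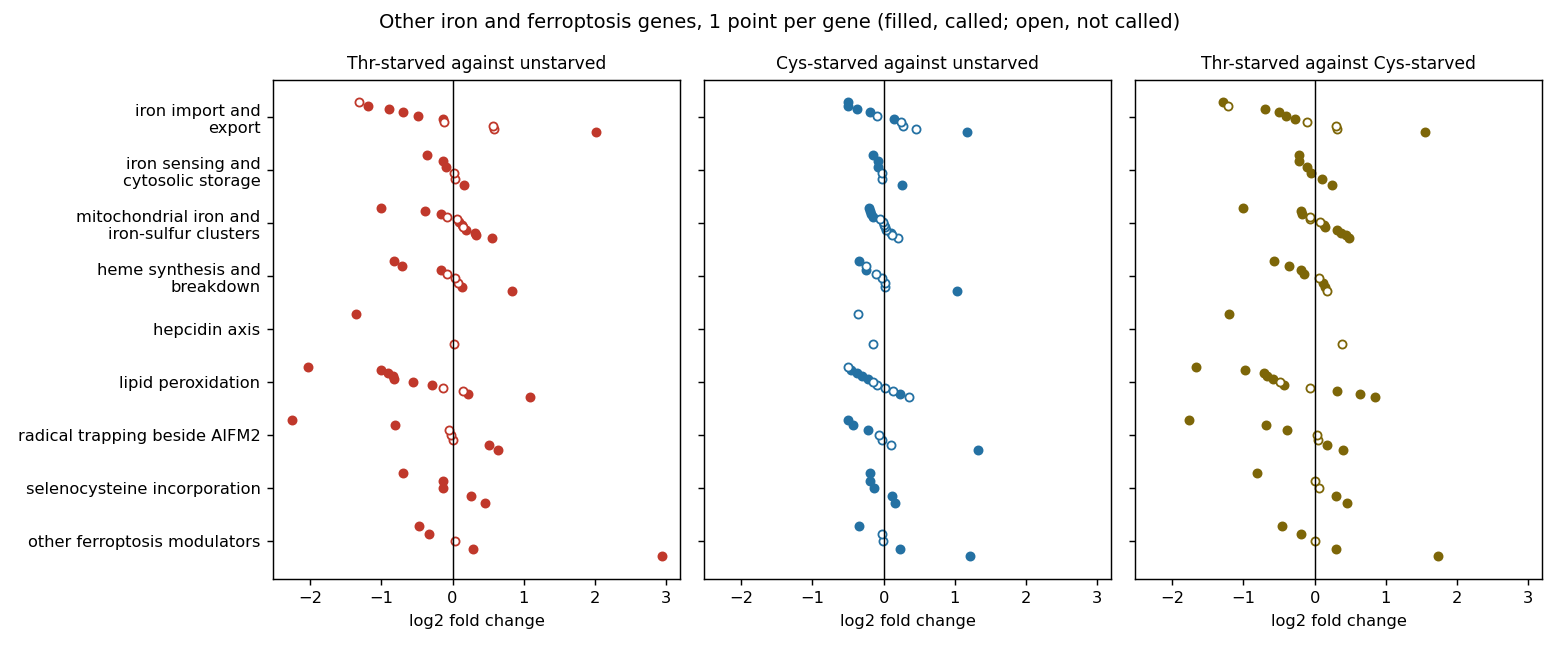
Log2 fold change of the 66 tested genes of the wider list, 1 point per gene, in 9 functional groups and 3 comparisons; filled points have an adjusted p of 0.05 or less. In the Thr comparison the points of the lipid peroxidation group lie mostly below 0, where 7 of its 11 genes were called lower. That group holds genes of unlike roles.

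Transport and sensing genes outside the 10 are given next, beside shares over all genes of 31.1% higher and 31.9% lower with Thr starvation, and 17.5% higher and 18.8% lower with Cys starvation. Of 10 tested genes of iron import and export, 1 was higher and 5 lower with Thr starvation, and 2 were higher and 4 lower with Cys starvation. Trf, which encodes transferrin, was at 5.37, 6.02 and 5.94 CPM unstarved, 3.02, 2.91 and 3.31 CPM Thr-starved and 4.05, 4.3 and 3.89 CPM Cys-starved, with changes of -0.9 (edgeR adjusted p = 3.9e-08) and -0.5 (edgeR adjusted p = 0.00018). Slc39a8, a metal importer of the same family as Slc39a14, fell from 8.01 ± 0.37 CPM to 3.56 ± 0.586 with Thr (log2 -1.19, edgeR adjusted p = 2.2e-09) and 5.68 ± 0.675 CPM with Cys starvation (log2 -0.5, edgeR adjusted p = 0.00045). The groups of both genes did not overlap. Of the 6 tested genes of sensing and cytosolic storage, 1 was higher and 3 lower under each starvation, and no change reached 1.5-fold.

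Of the iron sensing genes, Fbxl5 had the largest change with Thr starvation, and Aco1 and Ireb2 moved less there. Aco1, whose protein becomes iron regulatory protein 1 when it lacks its cluster, was at 69.5 ± 1.71 CPM unstarved, 63.4 ± 1.02 Thr-starved and 68.7 ± 3.24 CPM Cys-starved. Its Thr change was -0.13 (edgeR adjusted p = 0.0021), which was lost without the GC and length trends (-0.039, edgeR adjusted p = 0.31), and its Cys change of -0.02 was not called (edgeR adjusted p = 0.74). Ireb2, which encodes iron regulatory protein 2, was at 221 ± 5.17, 248 ± 3.61 and 209 ± 1.16 CPM in the same order. Its changes were 0.16 (edgeR adjusted p = 2.5e-06) with Thr and -0.09 (edgeR adjusted p = 0.0062) with Cys starvation. The sign of the Thr change turned without the GC and length trends (-0.081, edgeR adjusted p = 0.0015). The Cys change of Ireb2 was -0.18 without these trends (edgeR adjusted p = 2e-07) and -0.13 with the deposited size factors (edgeR adjusted p = 0.00016). Fbxl5, the ligase adaptor that removes iron regulatory protein 2 when iron is plentiful, fell under both starvations, from 68.1 ± 1.68 CPM to 53.1 ± 1.69 with Thr (log2 -0.36, edgeR adjusted p = 4.1e-09, or -0.56 without the GC and length trends) and 61.6 ± 2.03 CPM with Cys starvation (log2 -0.15, edgeR adjusted p = 0.0015).

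Of 12 genes of mitochondrial iron and iron-sulfur clusters, 6 were higher and 3 lower with Thr starvation (75% called, against 63% of all genes), and 1 was higher and 4 lower with Cys starvation (41.7%, against 36.3%). Nfs1, the desulfurase that takes sulfur from Cys for cluster assembly, was at 20.4, 22.2 and 22.5 CPM unstarved, 22.1, 21.9 and 20.8 CPM Cys-starved, and 9.82, 11.2 and 11.2 CPM Thr-starved. It was thus lower with Thr starvation in every library (log2 -1.01, SE 0.059, edgeR adjusted p = 7.9e-13), while the interval of the Cys change ran from -0.12 to 0.11 (edgeR adjusted p = 0.96). Cisd2, an iron-sulfur protein of the endoplasmic reticulum and outer mitochondrial membrane, was higher with Thr (log2 0.31, edgeR adjusted p = 5.3e-07, or 0.15 without the GC and length trends) and lower with Cys starvation (log2 -0.17, edgeR adjusted p = 0.0018). In the heme group of 8 genes, 2 were higher and 3 lower with Thr (62.5% called), and 1 was higher and 2 lower with Cys starvation (37.5%), shares near those of all genes. Hmox1, the heme oxygenase that frees iron from heme, led the group. It was at 104, 109 and 105 CPM unstarved, 189, 183 and 196 CPM Thr-starved and 213, 216 and 218 CPM Cys-starved, so that it rose 1.79-fold (edgeR adjusted p = 4e-17) and 2.04-fold (edgeR adjusted p = 1.4e-17), and was lower with Thr than with Cys starvation (log2 -0.19, edgeR adjusted p = 2.8e-06). Of the hepcidin axis, 2 of 5 genes could be tested, of which 1 was called lower with Thr starvation and 0 were called with Cys starvation.

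Of the 11 genes of the lipid peroxidation group, 2 were higher and 7 lower with Thr starvation (all genes, 31.1% and 31.9%), and 1 was higher and 4 lower with Cys starvation (all genes, 17.5% and 18.8%). With Thr starvation Cyb5r1 and Lpcat3 were higher, and Scd2, Scd1, Acsl3, Alox12, Mboat1, Por and Mboat2 were lower. The group counts genes of unlike roles together, so these counts give no direction for peroxidation itself. Scd2, which makes monounsaturated fatty acids, was at 300, 290 and 293 CPM unstarved, 236, 221 and 223 CPM Cys-starved and 72, 70.3 and 73 CPM Thr-starved. Its log2 changes were -2.03 with Thr (SE 0.028, edgeR adjusted p = 1.4e-23) and -0.38 with Cys starvation (SE 0.027, edgeR adjusted p = 2.1e-10), and the difference was -1.66 (edgeR adjusted p = 6.5e-22). Cyb5r1, an oxidoreductase that can feed electrons into lipid peroxidation, moved in the other direction, from 84.8 ± 4.84 CPM to 180 ± 0.425 CPM with Thr (log2 1.09, edgeR adjusted p = 4.3e-18) and to 99.6 ± 1.12 CPM with Cys starvation (log2 0.23, edgeR adjusted p = 5e-06). In the direct comparison 9 of the 11 genes were called, 3 of them higher and 6 lower in Thr-starved cells (all genes, 30.4% and 31.6%), and Cyb5r1 differed by 0.85 (edgeR adjusted p = 3.3e-16).

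In the group of radical traps beside AIFM2, 2 of 7 genes were higher and 2 lower with Thr starvation (57.1% called, against 63% of all genes), and 1 was higher and 3 lower with Cys starvation (57.1%, against 36.3%). Dhcr7, the last enzyme of cholesterol synthesis, which consumes the radical trap 7-dehydrocholesterol, fell from 35.8 ± 1.32 CPM to 7.48 ± 0.292 with Thr (log2 -2.26, edgeR adjusted p = 9.2e-20) and to 25.4 ± 1 CPM with Cys starvation (log2 -0.49, edgeR adjusted p = 1.2e-08). Gch1, the first enzyme of tetrahydrobiopterin synthesis, was at 1.65, 1.79 and 1.85 CPM unstarved, 2.57, 2.77 and 2.9 CPM Thr-starved and 4.57, 4.11 and 4.61 CPM Cys-starved. It rose 1.56-fold with Thr (edgeR adjusted p = 7.5e-05) and 2.51-fold with Cys starvation (edgeR adjusted p = 4.9e-09), and was lower with Thr than with Cys starvation (log2 -0.68, edgeR adjusted p = 8.4e-06). Of the 5 genes of selenocysteine incorporation, on which GPX4 protein depends, 2 were higher and 3 lower under each starvation (100% called, against 63% and 36.3% of all genes). Among 5 other ferroptosis modulators, 2 were higher and 2 lower with Thr (80%), and 2 were higher and 1 lower with Cys starvation (60%). Ptgs2, a cyclooxygenase gene widely read as a marker of ferroptosis, was at 0.529, 0.695 and 1 CPM unstarved, 2.1, 1.5 and 1.51 CPM Cys-starved and 5.98, 5.54 and 5.49 CPM Thr-starved. The groups did not overlap, and its changes were 7.69-fold with Thr (log2 2.94, SE 0.17, edgeR adjusted p = 6.7e-13) and 2.31-fold with Cys starvation (log2 1.21, SE 0.19, edgeR adjusted p = 3.2e-05), at low levels throughout.

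Across the 9 libraries, the genes whose level followed Gpx4 most closely, among 11409 genes, were Ube2a (Pearson r = 0.995), Vbp1 (0.99) and Fem1b (0.989). For Tfrc they were Utp18 (0.997), Rcn1 (0.994) and Rps4x (0.993). These values were computed on log2(CPM + 0.5) and describe likeness over the same 9 libraries, which fall into 3 groups.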

How the data were processed

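Per the labels, reads were processed with bcl2fastq, FastQC 0.11.7, STAR 2.7.4a (GRCm38), HTSeq, R 4.0.3 and DESeq 1.30.1 with DESeq2. The authors deposited raw counts per gene from paired reads, and a signal table in which these counts are divided by a DESeq2 size factor per library. How the counting treated strand and overlapping genes is not given in the sources used here. Of the 28226 values from 1 to 20, 67.8% were even, so counts may overstate the number of fragments. All tests used the raw counts.

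Here R 4.3.3 and edgeR 4.0.16 (TMM, quasi-likelihood F test, 1 fit of all 9 libraries, genes with at least 1 count in all, Benjamini-Hochberg over all genes of a comparison) gave the changes. The common biological coefficient of variation was 3.53%. Between replicates of a group the chi-square per gene was 1.98 to 2.13 in every pair, a value that counting both ends of each fragment could give without further spread; no pair stood apart as a library deposited in duplicate, and no library was left out. The names of the unstarved columns carry a tag that no label explains, and a batch it might mark cannot be told apart from the group. The 18 identifiers without a symbol were tested too. The test was checked on simulated counts in which few genes changed, in 1 group only. That check does not cover changes in as many genes as here, or counts of both ends of a fragment. Alternatives were RLE and the deposited size factors, DESeq2 1.42.0, filterByExpr, at least 10 counts in every library, only the 2 groups compared, the replicate block, removal of each library's GC and length trends (loess, span 0.3), an adjusted p of 0.01, and each of the 9 libraries left out. Symbols, coordinates, exon lengths and transcript sequences came from GENCODE M21, on the build of the counts. Stretches of 43 bases were matched between annotated transcripts. Figures were drawn with Python 3.11.15 and matplotlib 3.10.9.

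The 10 genes, the wider list and the markers were chosen with earlier results of these data known. Genes of the wider list were named where, in any comparison, they were among the 3 called genes that rose most or the 3 that fell most, at a mean level of 1 CPM or more, together with Aco1, Ireb2, Fbxl5 and Hmox1. For Gpx4 and Tfrc the 3 most similar genes were named, at a mean level of 5 CPM or more.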

Additional observations from a re-analysis of the deposited data

Results flagged for a closer look

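Gpx4 and Steap3 were called in opposite directions by the 2 starvations, and the difference was tested directly between Thr-starved and Cys-starved libraries. Both genes were picked by those calls, and the direct test used the same fit and libraries. A difference was therefore nearly fixed in advance, and its p-values are no separate support. For Gpx4 the log2 difference was 0.31 (edgeR adjusted p = 2e-09), with 192, 184 and 197 CPM in Thr-starved against 151, 155 and 154 CPM in Cys-starved libraries. For Steap3 it was 1.12 (edgeR adjusted p = 8e-10), with 7.59, 7.13 and 7.77 CPM against 3.21, 3.34 and 3.82 CPM.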

How the results depend on the processing

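Among the 19 alternatives, 7 to 9 of the 10 genes were called with Thr starvation, 6 to 8 with Cys starvation and 8 in the direct comparison. For the wider list these ranges were 39 to 48, 28 to 38 and 44 to 49 genes. Over all genes they were 11031 to 12692, 5540 to 7573 and 10785 to 12618. The main fit called 63%, 36.3% and 62% of all genes. With 1 library left out the ranges were 7 to 8, 7 to 8 and 8 to 8 for the 10 genes. They were 43 to 47, 30 to 36 and 45 to 49 for the wider list, and 12096 to 12689, 6520 to 7475 and 11788 to 12540 for all genes. Of 570 values of the 10 genes recomputed under an alternative, 537 kept their sign and their side of the threshold, 15 lost a call, 12 gained one and 6 changed sign. Of 741 values of the named wider genes, 725, 6, 0 and 10 did so.

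Replicate numbers did not pair the libraries: deviations of same-numbered libraries correlated between -0.244 and 0.106 over 11410 genes, and 2 of 18 comparisons were best with the own number. With the replicate block 7, 7 and 8 of the 10 genes were called, Aifm2 being lost with Cys starvation (0.24, edgeR adjusted p = 0.052). Of the wider list 46, 35 and 49 were called, and of all genes 12488, 7063 and 12334. With the block and without the GC and length trends 9, 6 and 8 of the 10 genes were called, and 12451, 6790 and 12152 of all genes.

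The sign turned for Ireb2 with Thr starvation without the GC and length trends (-0.081, and -0.08 with the block), and for Ncoa4 in the direct comparison (-0.021 in both fits). All other reversals were of values near 0 that were not called. Slc39a14 with Thr starvation was -0.00026 with at least 10 counts in every library, and -0.029 (without Thr-starved replicate 2) to 0.02 with 1 library left out. Nfs1 with Cys starvation was 0.003 with at least 10 counts and with the block without the trends, 0.00023 with only the 2 groups compared, 0.0022 without the trends, and -0.05 to 0.022 with 1 library left out. With 1 library left out, Aco1 with Cys starvation ranged from -0.057 to 0.0087, Aifm2 with Thr starvation from -0.022 to 0.13 and Acsl4 with Cys starvation from -0.056 to 0.0024. The cause of these changes was not tested. Among the 10 genes, Slc40a1, at 21 to 165 counts per library, and Aifm2 and Steap3, at 202 to 570, had the widest errors.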
